A study of Gossypium hirsutum with 6 samples.

Results

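Leaves of the heat-sensitive upland cotton genotype Earlistaple 7 after 4 h at 45 °C were set against leaves of the same genotype kept at 28 °C, at the level of single assembled transcripts. A transcript entered the comparison when it reached 10 RPKM (reads per kilobase of transcript, scaled to library size, so a level per length) in either library, which 15811 of 421554 transcripts did. They belonged to 9640 of 148415 components, a component being the part of the identifier shared by transcripts that were assembled together. The seedlings (*Gossypium hirsutum*) were about 20 days old and had been grown in days of 28 °C and nights of 22 °C with 14 h of light, and the heated plants entered the chamber about 6 h after the lights came on. Each side of the comparison is 1 library, as is each of the other 4 libraries used beside it: Earlistaple 7 after 8 h at 45 °C, and the heat-tolerant genotype Nan Dan Ba Di Da Hua after 4 h and 8 h at 45 °C and at 28 °C. The spread between plants is therefore unknown, no p-value can be given, and every statement below is one of size. The hour at which control leaves were collected is not stated, so that heat and time of day cannot be told apart.

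In plant leaves, temperatures well above the growth range set off the heat-shock response, in which heat-shock transcription factors switch on genes for chaperones that hold or refold damaged proteins. Many genes that are active in unstressed leaves, those for photosynthesis among them, are commonly turned down at the same time. The transcript identifiers carry no gene names, and 0 of them matched the reference gene table, so no transcript below can be assigned to either side of that response. Groups are described by their levels, by the size and direction of their difference, and by their behaviour in the other libraries. A list of heat-shock or photosynthesis genes could not be applied, and no sequence is printed.

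After 4 h of heat, 4231 transcripts exceeded the control by 2-fold or more and 3684 lay 2-fold or more below it, which is 26.8% and 23.3% of those tested. The ratio is that of RPKM + 1, which understates the differences of low transcripts. The remaining 7896 transcripts (49.9%) lay within 2-fold. The middle of the distribution was close to 0, with a median log2 ratio of 0.05 and quartiles of -0.92 and 1.10. Its tails were longer on the higher side, with a 95th percentile of 3.18 and a 5th percentile of -2.72.

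Counted by component, with each represented by its transcript of highest mean RPKM, 2440 were higher by this limit and 2205 lower, or 25.3% and 22.9% of 9640. At each limit more transcripts were higher than lower. At least 8-fold higher were 957 transcripts (6.05%) and at least 8-fold lower 599 (3.79%), from 543 (5.63%) and 354 (3.67%) components. At least 16-fold higher were 319 transcripts and at least 16-fold lower 211.

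That order depended on the control library and on low levels. With the tolerant control in place of the sensitive one, a setting added after the data were seen, transcripts at least 8-fold higher numbered 355 and those at least 8-fold lower 585, while the counts at 2-fold were 3359 and 3830. The mean of both controls gave 391 and 559 past 8-fold. A pseudocount of 10 RPKM gave 123 and 137 past 8-fold. Among the 2310 transcripts that reached 50 RPKM in either library, 787 were higher by 2-fold or more and 917 lower. The count of 8-fold lower transcripts thus barely moved with the control library, whereas that of 8-fold higher ones moved by more than 2-fold.

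**Figure D1:**
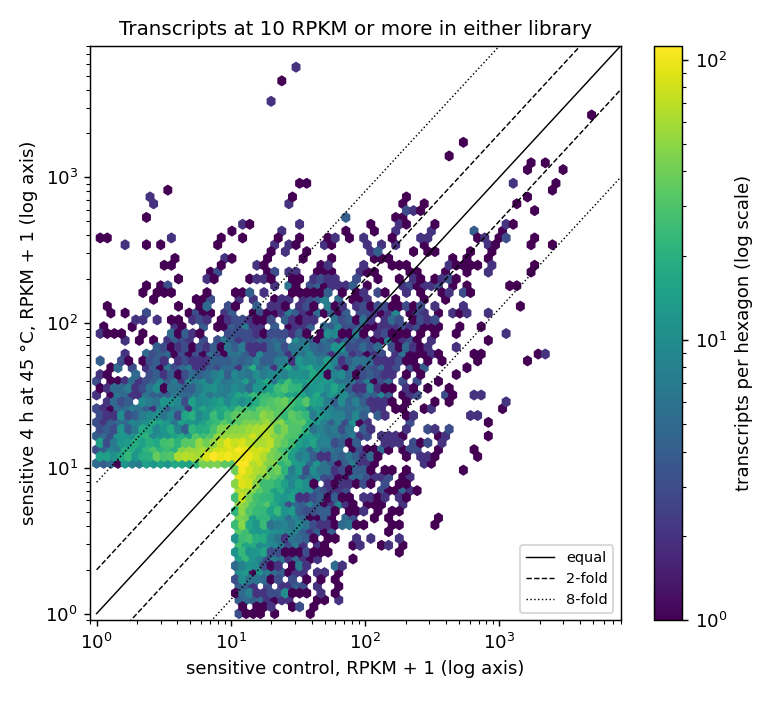
RPKM + 1 of the 15811 tested transcripts after 4 h of heat (vertical) against the sensitive control (horizontal), both on log axes, with colour giving the transcripts per hexagon. The empty corner at the lower left is the 10 RPKM threshold, and the cloud reaches past the dotted 8-fold lines on both sides, with 957 transcripts above and 599 below.

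The threshold shapes these counts, because a transcript that passed through 1 library alone tends to differ. Both libraries reached 10 RPKM for 6845 transcripts, the 4 h library alone for 4889 and the control alone for 4077. Among the 6845 there were 797 higher by 2-fold or more and 1001 lower, the opposite order to the whole. Just inside the threshold, 1640 transcripts had their higher value between 10 and 11 RPKM, and 23.3% of them were higher by 2-fold or more and 18.4% lower. Just outside it, 2006 transcripts peaked between 9 and 10 RPKM, with 22.8% higher and 17.2% lower.

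At least 1 of the 2 values of each tested transcript reached 10 RPKM, and the reads behind that level can be estimated. The spacing of low values gave the 4 h library 0.941 times the reads of the control, and put the worth of 1 read at no more than about 0.18 RPKM in the control for the shortest transcripts. At 10 RPKM that corresponds to at least about 52 reads in the 4 h library and 56 in the control. A count of 56 has an exact 95% Poisson interval of 42.3 to 72.7, which covers counting error only. The other value of a transcript may rest on far fewer reads, down to a listing at 0. The estimate rests on 13045 of 155863 low transcripts examined, those whose values in all libraries were whole multiples of 1 step within 0.006 RPKM.

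The transcripts that differed held a large part of the library. Those at least 2-fold higher made up 25.6% of all RPKM at 4 h and 4.43% in the control. Those at least 2-fold lower made up 6.69% at 4 h and 29.9% in the control, and those within 2-fold 21.9% and 22.9%. Summed over transcripts, the gains came to 195610 RPKM and the losses to 231450 RPKM. The 2 largest gains held 5.79% of the total gain and the 2 largest losses 2.00% of the total loss. It took 441 transcripts to account for 50% of the gain and 301 for 50% of the loss.

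Fewer transcripts stood at high levels after 4 h of heat, although the 10 highest held more of the library, with 3.79% of RPKM at 4 h and 3.14% in the control. Transcripts at 1000 RPKM or more numbered 12 at 4 h and 36 in the control, and those at 100 RPKM or more 589 and 661. Of the 36 in the control, 5 were still at 1000 RPKM or more at 4 h, 22 lay between 100 and 1000 and 9 between 10 and 100 RPKM. In the other direction, 7 transcripts reached 1000 RPKM at 4 h from below it, 5 of which had stood between 10 and 100 RPKM in the control. Between 10 and 100 RPKM in the control and between 100 and 1000 at 4 h were a further 269, against 358 that had gone down by the same step.

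Sorting transcripts by their level in the tolerant control, a library on neither side of the ratio, avoided choosing them by a value that enters it. The 27 transcripts at 1000 RPKM or more there had a median of 468 RPKM in the sensitive 4 h library and 1670 RPKM in the sensitive control. Of these 27, 20 were at least 2-fold lower and 0 at least 2-fold higher. Taken with the next class down, the 775 at 100 RPKM or more had a median log2 ratio of -1.27. The 748 between 100 and 1000 RPKM had a median log2 ratio of -1.23 (quartiles -2.42 and 0.14), with 55.5% at least 2-fold lower and 19.1% higher. The 10696 between 10 and 100 RPKM had a median of -0.28, with 26.1% lower and 15.9% higher. Differences towards lower values were thus most frequent among the transcripts most abundant in unheated tolerant leaves, and a minority at 100 to 1000 RPKM went the other way. The sorting library is itself unheated, so transcripts that were high only under heat are left out of its upper classes. The highest component at sensitive 4 h, for example, had 43.1 RPKM in the tolerant control. The tilt therefore describes transcripts high without heat and not abundant transcripts in general.

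The most abundant components show both patterns. Of the 10 components with the highest RPKM at 4 h, 5 exceeded the control by 2-fold or more, 1 lay below it by as much and 4 lay within 2-fold. These 10 reduced to 6 profiles once components that kept a common ratio within 10% were merged, so some are counted more than once. The highest of all had 5713.84 RPKM at 4 h and 30.42 RPKM in the control, a 188-fold difference, and the next had nearly proportional values. The fourth had 1754.13 RPKM at 4 h against 549.13 RPKM in the control, 3.19-fold higher, where the tolerant genotype had 1242.18 RPKM at 4 h and 801.93 RPKM in its control. The tenth had 951.19 RPKM at 4 h against 37.03 RPKM in the control, 25.7-fold higher, and in the tolerant genotype 320.06 RPKM at 4 h and 34.49 RPKM in its control. The control levels of these 10 thus ran from 30.18 to 5166.93 RPKM. All lay above 22.9 RPKM, the upper quartile of the tested transcripts in that library.

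Of the 10 components highest in the control, which merged in the same way into 8 profiles, 7 were at least 2-fold lower at 4 h and 3 were lower by less. The fifth had 62.08 RPKM at 4 h and 2244.84 RPKM in the control, 36.2-fold lower. The eighth had 61.98 RPKM at 4 h and 1891.87 RPKM in the control, 30.5-fold lower. The fourth was less affected, with 340.62 RPKM at 4 h and 2339.3 RPKM in the control, 6.87-fold lower. In the tolerant genotype all 10 lay below their control at 4 h by 2-fold or more.

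The largest differences towards higher values were those of comp91120_c0_seq1 and comp85204_c0_seq1. comp91120_c0_seq1 had 383.27 RPKM at 4 h and 0.13 RPKM in the control, a log2 ratio of 8.41 on RPKM + 1, and comp85204_c0_seq1 had 370.56 RPKM at 4 h and 0.12 RPKM in the control, a log2 ratio of 8.37. Both were near the resolution of the data in the control, so no plain fold is given. At 8 h they stood at 179.37 and 173.31 RPKM in the sensitive genotype. The tolerant genotype had 768.93 RPKM at 4 h and 0.19 RPKM in its control for comp91120_c0_seq1, and 743.41 RPKM and 0.19 RPKM for comp85204_c0_seq1. The values of this pair kept nearly 1 ratio in every library in which they were above 1 RPKM. Whether they are separate measurements was not tested.

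The 10 components with the highest ratios spanned log2 values of 7.51 to 8.41 and reduced to 6 profiles once those that kept a common ratio within 10% were merged. The component ranked 3 had 769.39 RPKM at 4 h and 1.55 RPKM in the control, 496-fold higher, and 695.83 RPKM at 8 h. The fifth had 657.49 RPKM at 4 h and 1.76 RPKM in the control, 374-fold higher, and 588.5 RPKM at 8 h. The seventh had 359.49 RPKM at 4 h and 0.59 RPKM in the control, and was higher still at 8 h, at 436.93 RPKM. In the tolerant genotype all 10 were higher at 4 h too, with log2 ratios of 6.90 to 9.34.

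The largest differences towards lower values were those of comp120317_c0_seq1 and comp101866_c0_seq1. comp120317_c0_seq1 had 3.23 RPKM at 4 h and 346.34 RPKM in the control, 107-fold lower, with 7.1 RPKM at 8 h. comp101866_c0_seq1 had 3.39 RPKM at 4 h and 347.13 RPKM in the control, 102-fold lower, with 6.67 RPKM at 8 h. In the tolerant genotype comp120317_c0_seq1 had 1.96 RPKM at 4 h and 313.06 RPKM in the control, and comp101866_c0_seq1 1.91 RPKM at 4 h and 310.96 RPKM in the control. The pair ran closely together, but unlike the pair with the highest ratios it was not merged into a common profile by the 10% rule. The component ranked 3 had 10.52 RPKM at 4 h and 660.33 RPKM in the control, 62.8-fold lower, and the ninth 16.4 RPKM at 4 h and 829.6 RPKM in the control, 50.6-fold lower. All 10, which reduced to 8 profiles, lay between -6.36 and -5.55 in log2 ratio, and in the tolerant genotype between -6.83 and -5.17.

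**Figure D2:**
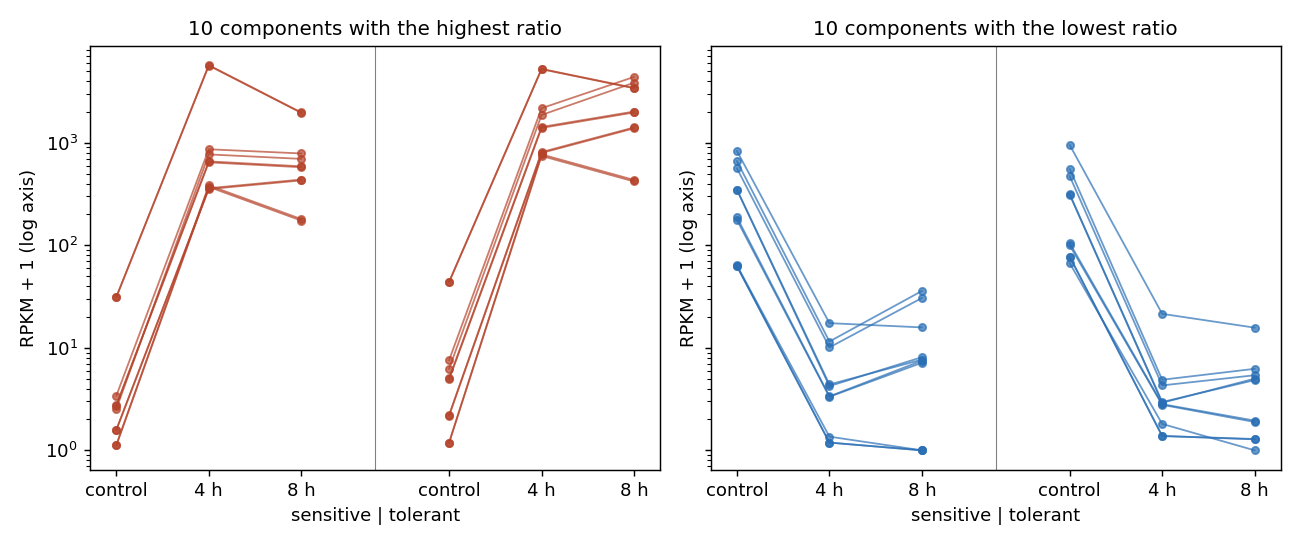
RPKM + 1 (log axis) of the 10 components with the highest (left) and the 10 with the lowest (right) ratio of sensitive 4 h to sensitive control, in the control, 4 h and 8 h libraries of the sensitive and the tolerant genotype. Each line is 1 component. The left group reached 352.56 to 5713.84 RPKM in the sensitive 4 h library and the right group 0.19 to 16.4 RPKM, with the same directions in the tolerant genotype.

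A smaller class went from near absence to a sizeable level. At 10 RPKM or more at 4 h and under 1 RPKM in the control were 519 transcripts of 307 components, 22 of them listed at 0 in the control and 7 at 100 RPKM or more at 4 h. The reverse class, under 1 RPKM at 4 h and at 10 RPKM or more in the control, held 208 transcripts of 145 components, 7 of them listed at 0 at 4 h and 0 at 100 RPKM or more in the control. Of the 519, 130 (25%) were also under 1 RPKM in the tolerant control. The median of the 519 was 0.56 RPKM in the sensitive control, where the choice holds it under 1 RPKM, and 3.16 RPKM in the tolerant control. Each class was chosen by a low value in 1 sensitive library, which favours higher values in any other library. The levels in the tolerant genotype are therefore a description, and a difference between the genotypes was not tested. Of the 208, 148 (71.2%) were also under 1 RPKM in the tolerant 4 h library. The share of all tested transcripts under 1 RPKM in the tolerant libraries was not computed. Neither the 25% nor the 71.2% is therefore read as overlap between the genotypes. With the tolerant control as the baseline the class that came up from under 1 RPKM shrank to 185 transcripts, and the reverse class stayed at 207.

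The medians of the lists taken at 4 h were close to those in the 8 h library of the same genotype, while the most abundant transcripts differed more. Transcripts at least 2-fold higher had medians of 4.28 RPKM in the sensitive control, 20.0 at 4 h and 18.9 at 8 h. Those at least 2-fold lower had medians of 22.5, 5.31 and 5.90 RPKM. The 319 that were at least 16-fold higher had medians of 1.29, 57.6 and 56.0 RPKM, and the 211 that were at least 16-fold lower 103, 3.04 and 3.53 RPKM. Both ratios to the control share that library, so the values are given side by side only. The higher list held 25.6% of all RPKM at 4 h and 20.8% at 8 h. Transcripts at 1000 RPKM or more held 7.33% of it in unheated leaves, 4.07% after 4 h and 1.22% after 8 h. The most abundant component of the 4 h library had 30.42, 5713.84 and 1974.84 RPKM in the same order.

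**Figure D3:**
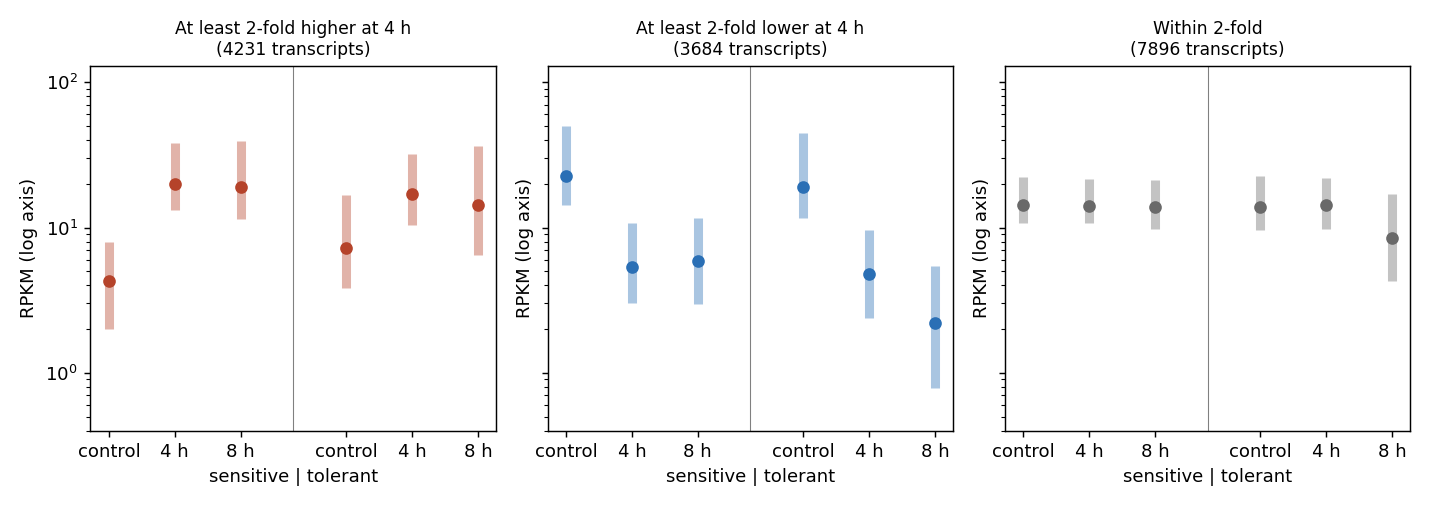
Median (point) and quartiles (bar) of RPKM, on a log axis, of the transcripts at least 2-fold higher, at least 2-fold lower and within 2-fold in the sensitive 4 h library relative to its control, in all 6 libraries. In the sensitive genotype the 4 h and 8 h medians lie close together for each list. In the tolerant genotype the median of each list was lower at 8 h than at 4 h. It went from 17 to 14.4 RPKM for the higher list and from 4.79 to 2.21 RPKM for the lower list. For the transcripts within 2-fold it went from 14.2 to 8.47 RPKM.

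The tolerant genotype gives a comparison that shares no library with this one. Across the 15811 transcripts its log2 ratio of 4 h to control followed that of the sensitive genotype with Pearson's r = 0.771 (Spearman's rho = 0.769), a description across transcripts, many of which share reads or a component. Of all 15811, 18.6% were higher there by 2-fold or more and 27.2% lower. Of the 3684 lower in the sensitive genotype, 3029 (82.2%) were lower by 2-fold or more in the tolerant one too, and 2 were higher by as much. Of the 4231 higher, 2307 (54.5%) were likewise higher and 302 (7.14%) were lower by 2-fold or more. The share was larger for the lower list, but so was the share over all transcripts tested, and relative to it the lower list stood at 3.02 times and the higher list at 2.94 times. Whether that difference exceeds the variation between plants was not tested.

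The share of the lower list was the larger in each class of size. Among transcripts 2- to 4-fold lower, 71.4% shared the direction in the tolerant genotype by 2-fold or more, and this share was 94.9% at 4- to 8-fold, 98.7% at 8- to 16-fold and 100% of the 211 at 16-fold or more. Among transcripts 2- to 4-fold higher, 52.0% did so, and the shares were 55.0%, 54.9% and 69.0% in the classes above. Over components, 1793 of 2205 lower ones (81.3%) and 1340 of 2440 higher ones (54.9%) shared the direction, against 26.8% and 18.4% of all components tested. Among transcripts at 10 RPKM or more in both sensitive libraries, which did not pass through 1 side alone, the shares were 86.6% of the 1001 lower and 50.8% of the 797 higher. Over all 6845 of these, 22.8% were lower and 9.55% higher in the tolerant genotype, so that relative to all the lower list stood at 3.80 times and the higher list at 5.32 times. Upper-quartile scaling, which shifted the tolerant ratios by -0.43 on the log2 scale, gave 89.6% of the lower and 41.2% of the higher list, with 35.6% and 12.0% over all tested. At a filter of 1 RPKM the order turned, with 47.9% of the lower and 49.6% of the higher transcripts sharing the direction, against 8.66% and 15.0% of all transcripts tested at that filter.

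**Figure D4:**
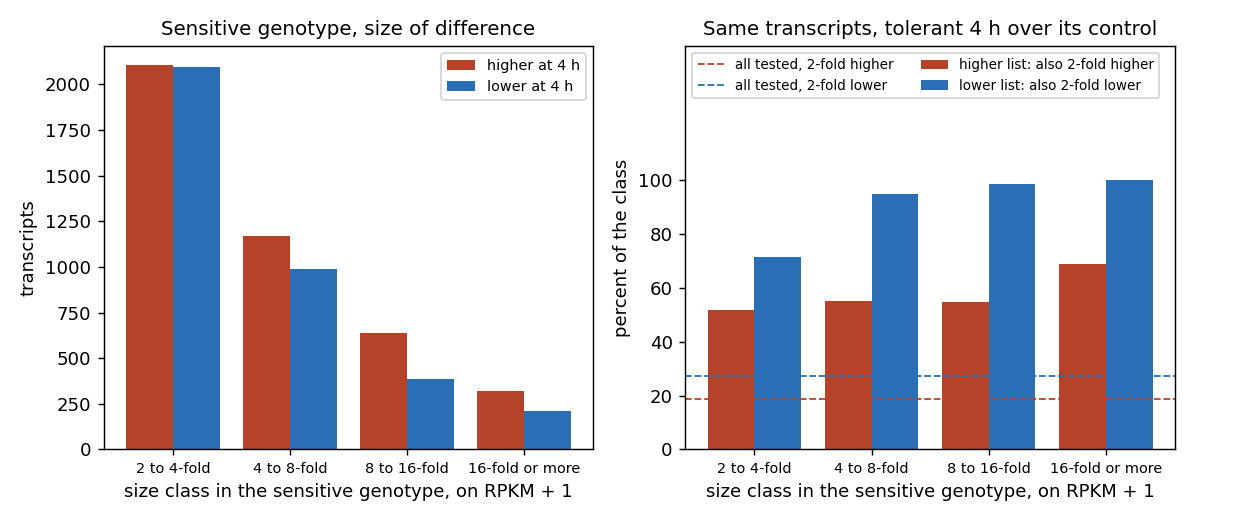
Left, number of transcripts in each class of fold difference between sensitive 4 h and sensitive control, higher (red) and lower (blue). Right, percent of each class that was at least 2-fold different in the same direction in the tolerant genotype, with dashed lines at the share over all tested transcripts (18.6% higher, 27.2% lower). The blue bars climb from 71.4% to 100%, and the red bars lie between 52.0% and 69.0%.

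The higher list split into 3 groups by the tolerant genotype. That choice fixes how 4 h compares with the control in each group, so the medians are a description. The 2307 transcripts that were higher in both had similar medians in both genotypes, with 19.9 RPKM at 4 h and 3.95 RPKM in the control of the sensitive genotype, and 20.1 RPKM at 4 h and 4.63 RPKM in the control of the tolerant one. The 1622 that lay within 2-fold in the tolerant genotype had medians of 19.4 RPKM at 4 h and 4.71 RPKM in the control of the sensitive genotype. Their medians in the tolerant genotype were 13.4 RPKM at 4 h and 10.8 RPKM in the control. The 302 with opposite directions had medians of 26.3 RPKM at 4 h and 3.63 RPKM in the control of the sensitive genotype, against 9.47 RPKM at 4 h and 42.2 RPKM in the control of the tolerant genotype.

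The choice of these 302 transcripts, of 193 components, itself fixes a sensitive control below the sensitive 4 h library and a tolerant control above the tolerant 4 h library, so their levels are a description. The sensitive control was the lowest of the 6 libraries for 248 of them (82.1%), and for 2661 of all 4231 higher transcripts (62.9%). The tolerant control was the highest for 162 of them (53.6%) and for 201 of the 4231 (4.75%). It was at or above 50% of the sensitive 4 h value for 291 of the 302 (96.4%) and for 1226 of the 4231 (29%). Their median in the sensitive 8 h library was 34.9 RPKM. Genotype and library cannot be told apart here, since each control is 1 library of 1 genotype.

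**Figure D5:**
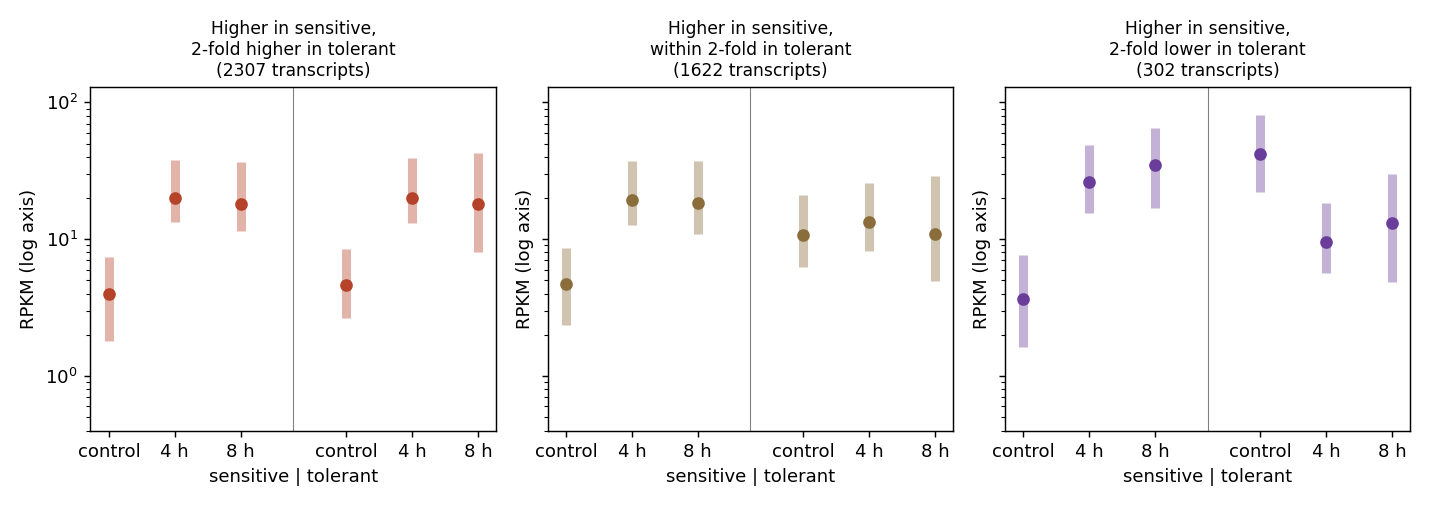
Median (point) and quartiles (bar) of RPKM, on a log axis, in all 6 libraries, of the transcripts at least 2-fold higher at sensitive 4 h, divided by their direction at tolerant 4 h. In the right panel the sensitive control (median 3.63 RPKM) is the low library and the tolerant control (median 42.2 RPKM) the high one.

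Transcripts of the same component mostly moved together. How far they share reads was not tested, so their agreement is a description and not that of separate measurements. Of the 9640 components, 6647 had 1 tested transcript and 2993 had 2 or more, up to 30, with 9164 transcripts in all. In 2615 of the 2993 (87.4%) every log2 ratio had the same sign, and the median range of log2 ratios within a component was 0.18, with a 90th percentile of 1.20. All tested transcripts were higher by 2-fold or more in 711 and lower in 608. A transcript at least 2-fold higher stood beside another at least 2-fold lower in 35 components (1.17%). The tested transcript with the highest RPKM differed between the 4 h and the control library in 752 (25.1%). That count takes any change of rank, with no limit on its size.

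The split components show what a change within a component looks like. In the one with the widest range, which had 14 tested transcripts, 1 transcript had 29.2 RPKM at 4 h and 4.86 RPKM in the control, and another 2.16 RPKM at 4 h and 49.49 RPKM in the control. In the tolerant genotype the first had 27.69 RPKM at 4 h and 7.81 RPKM in the control, and the second 3.49 RPKM at 4 h and 22.49 RPKM in the control. The exchange thus ran the same way in both genotypes. In the component ranked 3, 1 transcript had 18.49 RPKM at 4 h and 2.04 RPKM in the control, and another 0.71 RPKM at 4 h and 12.27 RPKM in the control. There the tolerant genotype had 21.17 RPKM at 4 h and 14.94 RPKM in the control for the first, and 1.17 RPKM at 4 h and 14.63 RPKM in the control for the second, so that the first was already present in the tolerant control. Whether the members of a component come from 1 gene was not tested.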

How the data were processed

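Leaf RNA of 6 libraries, 1 per genotype and condition, was sequenced by the authors. They deposited RPKM values with 2 decimals for the same 421554 transcripts in each library, per the file headers. No assembler, aligner, counting rule or annotation is named: each is not given in the sources used here. RPKM is a share of each library's reads, and lower values of abundant transcripts push up the others.

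The 2 sensitive libraries were joined on transcript identifier, and log2((RPKM + 1)/(RPKM + 1)) was computed (Python 3.11.15, pandas 2.3.3, numpy 2.4.6) for transcripts at 10 RPKM or more in either. No test was possible with 1 library per group. The steps were tested on simulated data. Identifiers printed are the 2 highest and 2 lowest ratios, 1 per component. Others are described by rank or class.

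Of the tested transcripts above 0.5 RPKM in all 6 libraries, 3546 of 14738 (24.1%) had values proportional to a transcript of another component, within a distance of 0.02 on centred natural logarithms, so transcript counts may exceed the loci behind them.

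The comparison, its threshold and the lists were chosen with earlier results of these data known. None of the 99454 genes of the reference table matched an identifier.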

Additional observations from a re-analysis of the deposited data

Results flagged for a closer look

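The results flagged are opposite directions in the 2 genotypes, which were rarer in both lists than over all transcripts tested. At least 2-fold higher at sensitive 4 h and at least 2-fold lower at tolerant 4 h, each against its own control, were 302 transcripts. They made up 7.14% of the higher list, whereas 27.2% of all 15811 tested were lower in the tolerant genotype. At least 2-fold lower at sensitive 4 h and at least 2-fold higher at tolerant 4 h were 2 transcripts, with median log2 ratios of -1.02 in the sensitive and 1.14 in the tolerant genotype. These 2 made up 0.0543% of the lower list, whereas 18.6% of all tested were higher in the tolerant genotype. With 1 library per group, the difference between the genotypes was not tested. The transcript with the largest ratio among the 302 had 203.52 RPKM at 4 h and 6.01 RPKM in the control of the sensitive genotype, and 36.32 RPKM at 4 h and 95.46 RPKM in the control of the tolerant genotype. The sensitive control was the lowest of the 6 libraries for 248 of the 302 (82.1%), which their selection favours, and for 2661 of all 4231 higher transcripts (62.9%).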

How the results depend on the processing

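Of 93 recomputed counts and shares, 51 stayed within 1.5 times the count or within the 95% binomial interval of the share, and 42 moved. The median log2 ratio, which has no such interval, was recomputed 6 times and stayed below 0. The order of higher and lower counts turned at 8-fold with a pseudocount of 10 RPKM and with either other baseline, and at 2-fold with a filter of 50 RPKM and with the tolerant control, which gave 3359 and 3830. The order of the shared shares turned at a filter of 1 RPKM. It also turned with no filter, which must call the same transcripts, since 2-fold on RPKM + 1 needs at least 1 RPKM. The cause was not tested except where the setting itself adds or removes transcripts. A filter of 1 RPKM in either library tested 149336 transcripts of 57830 components. It gave 19226 transcripts at least 2-fold higher and 16147 lower, 9589 and 8588 components, and 257 split components. No filter gave 19226 and 16147 of 421554 transcripts, 9574 and 8572 of 148415 components, and 257 split ones. The shares also past 2-fold in the tolerant genotype were 49.6% of the higher and 47.9% of the lower list under both. Over all transcripts tested, 15.0% were higher and 8.66% lower there at a filter of 1 RPKM, and 8.32% and 3.69% with no filter. A filter of 50 RPKM tested 2310 transcripts of 1559 components. It gave 787 and 917 transcripts at 2-fold, 316 and 298 at 8-fold, 498 and 604 components and 10 split ones. The shared share of the lower list was 96.0%, against 49.4% of all transcripts tested at that filter. A pseudocount of 10 RPKM gave 2277 and 1965 transcripts at 2-fold, 123 and 137 at 8-fold, 1304 and 1212 components and 14 split ones. Its shared shares were 38.3% (higher) and 76.1% (lower), against 7.73% and 14.5% of all transcripts tested. A pseudocount of 0.1 RPKM gave a shared share of 56.6% for the higher list, against 20.1% of all transcripts tested. Upper-quartile scaling gave 41.2% (higher) and 89.6% (lower), against 12.0% and 35.6% of all transcripts tested. Its shift of the sensitive ratios was -0.06 on the log2 scale, that of median-of-ratios scaling 0.05. Components as summed RPKM gave 4057 higher and 3419 lower, but of 19955 tested, against 9640 in the main setting. The median log2 ratio of transcripts at 100 RPKM or more in the tolerant control, -1.27, was -1.28 with a pseudocount of 0.1, -1.17 with one of 10, -1.22 with median-of-ratios scaling and -1.33 with upper-quartile scaling. It was -0.89 from 50 RPKM and -1.46 from 200 RPKM. A limit of 0.5 in place of 1 RPKM left 216 transcripts that came up and 99 that went down.

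The settings below were chosen after seeing the data. The tolerant control as baseline gave 355 transcripts at least 8-fold higher and 585 lower, and 185 up from under 1 RPKM. The mean of both controls gave 391, 559 and 190. Merging proportional transcripts gave 3594 higher and 3240 lower. The 302 transcripts of opposite direction became 418 under upper-quartile scaling, 151 with a pseudocount of 10 RPKM, 71 with a filter of 50 RPKM and 701 with one of 1 RPKM or none. The 2 of the reverse kind became 8 with a pseudocount of 0.1 RPKM and 172 with a filter of 1 RPKM or none. With the tolerant control, or the mean of both, as the sensitive baseline the 302 became 11 and 59, but the ratios of the genotypes then share the tolerant control, so these counts are not comparable with it.

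No paired analysis was possible because each group holds 1 library, and leaving a library out would empty its group. Levels below about 1 RPKM rest on few reads in these libraries.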
